A study of Homo sapiens with 12 samples.

Results

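The AP-1 subunit genes described here are FOS, FOSB, FOSL1, FOSL2, JUN, JUNB, JUND and ATF3. They were chosen by gene symbol, and all 8 were found once each among the 58083 genes of the 3 deposited expression tables. In HEK 293T cells treated with the compound PDP, none of them was called different from the control after 3 h, where 0.115% of all tested genes were. At 72 h, 5 of them (FOS, JUN, JUNB, JUND and ATF3) were called higher, by 6.26-fold to 32.1-fold. There 19.0% of all tested genes were called higher. FOSB, FOSL1 and FOSL2 were not called at any time. The control at all 3 times was taken to be the samples with DMSO for 3 h.

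AP-1 is a transcription factor made of pairs of basic leucine zipper (bZIP) proteins. JUN proteins can pair with each other or with FOS proteins, whereas FOS proteins need a JUN partner to bind DNA well, and ATF3 can pair with itself or with JUN proteins. FOS, FOSB, JUN and JUNB are immediate early genes, which growth factors and stress switch on within minutes without new protein synthesis, through MAP kinases and factors such as SRF, and their mRNAs are short-lived. JUND is known for a steadier level, FOSL1 and FOSL2 for a later and longer response, and ATF3 for induction by many kinds of stress.

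HEK 293T cells are a line from human embryonic kidney, transformed with adenovirus DNA and carrying the large T antigen of SV40. The RNA groups, 2 samples each, were DMSO for 3 h and 1 µM PDP for each of 3 h, 24 h and 72 h, all in the same cell line and medium with no other treatment named. The series also holds a pull-down of G-quadruplexes, four-stranded structures of guanine-rich DNA, from annealed genomic DNA, and its input, again with 2 samples each. The labels give no structure for PDP. Each expression table gives 1 value per gene and condition in FPKM (fragments scaled to transcript length and library size), pooled over both samples, so there is no SD between samples and library depth is unknown. "Called" means a q-value under 0.05 in the authors' deposited table, and the standard error (SE) of a log2 fold change is the one implied by the test statistic there. The sample titles number the 2 samples of a group as bio1 and bio2, which reads as biological replicates. No label says whether they were separate cultures, and if they were not, the p-values measure technical spread. The control carried the same values in all 3 tables up to 1 constant factor per table (1.04 at 24 h and 0.968 at 72 h, SD 0.000842 and 0.000854 on the log2 scale), so all comparisons share the control. The tables name it only as cnt, which matches the samples labelled DMSO for 3 h, and it was taken to be those. Other control samples were not analysed here. Exposure to PDP and time in culture therefore cannot be told apart at 24 h and 72 h, nor can more RNA in every cell be told apart from more cells that carry it. All 6 genes listed as expressed by HEK 293T cells were found, from 0.896 FPKM for PAX2 to 259 FPKM for VIM in the control of the 3 h table. The markers of blood, liver and endothelial cells (PTPRC, ALB, PECAM1 and CDH5) stayed at or below 0.389 FPKM in every condition. Of the 6 HEK 293T markers, KRT8, NEFL, NEFM and PAX2 were called higher at 24 h and 72 h, and VIM at 72 h too. Over all tested genes, 9.21% were called higher at 24 h and 19.0% at 72 h. NEFL had 102 FPKM against 22.4 at 72 h, and the part of these markers in the results below was not tested.

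Promoter sequences from RefSeq (GRCh38.p14) were at hand for 7 of the 8 genes, and FOSL1 had none. The 250 bases before the start are shown for the 5 genes that were called and for FOSL2, which was not, so that genes that moved can be set beside one that did not. Capitals mark matches on either strand to the core TGACG of the cyclic AMP response element (CRE), to the full CRE TGACGTCA, to TGACATCA, a variant of the AP-1 site (the TPA response element, TRE) known from the JUN promoter, and to a G-run motif. The G-run motif is 4 runs of at least 3 G with loops of 1 to 7 bases, a pattern that can fold into a G-quadruplex. The ATF3 window shown is the one that holds TGACATCA. Another ATF3 window, not shown, had no match to these motifs.
FOS (chr14:75278578-75278827, plus strand): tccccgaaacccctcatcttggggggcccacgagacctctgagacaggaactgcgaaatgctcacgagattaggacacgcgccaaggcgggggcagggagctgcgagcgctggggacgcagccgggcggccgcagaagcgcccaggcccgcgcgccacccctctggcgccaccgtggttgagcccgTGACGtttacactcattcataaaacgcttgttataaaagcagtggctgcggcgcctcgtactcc
JUN (chr1:58784048-58784297, minus strand): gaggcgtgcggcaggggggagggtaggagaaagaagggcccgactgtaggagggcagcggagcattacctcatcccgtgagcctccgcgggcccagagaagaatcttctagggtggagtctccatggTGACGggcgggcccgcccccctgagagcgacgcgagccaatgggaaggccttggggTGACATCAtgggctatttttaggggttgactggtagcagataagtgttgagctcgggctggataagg
JUNB (chr19:12791236-12791485, plus strand): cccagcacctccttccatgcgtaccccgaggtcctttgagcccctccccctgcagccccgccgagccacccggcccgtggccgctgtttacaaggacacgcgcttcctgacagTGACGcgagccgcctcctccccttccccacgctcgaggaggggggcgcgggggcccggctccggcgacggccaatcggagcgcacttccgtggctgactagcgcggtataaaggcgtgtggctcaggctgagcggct
JUND (chr19:18281623-18281872, minus strand): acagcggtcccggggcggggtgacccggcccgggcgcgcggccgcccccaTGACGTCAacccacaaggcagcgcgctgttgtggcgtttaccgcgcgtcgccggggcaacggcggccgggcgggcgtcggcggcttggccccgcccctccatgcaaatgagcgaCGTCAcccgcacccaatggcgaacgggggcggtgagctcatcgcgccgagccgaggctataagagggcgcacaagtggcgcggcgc
ATF3 (chr1:212565157-212565406, plus strand): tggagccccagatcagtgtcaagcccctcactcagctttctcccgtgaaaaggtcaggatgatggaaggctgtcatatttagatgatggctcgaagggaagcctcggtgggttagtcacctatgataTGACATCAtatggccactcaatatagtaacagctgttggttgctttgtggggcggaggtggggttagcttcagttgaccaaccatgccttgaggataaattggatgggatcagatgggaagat
FOSL2 (chr2:28392608-28392857, plus strand): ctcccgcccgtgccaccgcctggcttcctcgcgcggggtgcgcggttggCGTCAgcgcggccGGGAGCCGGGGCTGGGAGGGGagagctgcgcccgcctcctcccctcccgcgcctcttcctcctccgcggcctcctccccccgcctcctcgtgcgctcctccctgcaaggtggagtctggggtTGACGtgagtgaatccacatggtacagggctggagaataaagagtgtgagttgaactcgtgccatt
The core TGACG, which the full CRE also contains, was found in the 300-base windows of FOS, FOSB, FOSL2, JUN, JUNB and JUND, against 24.6% of all 35116 windows. In FOS it lay 64 to 60 bases before the start and in FOSB 60 to 56 bases before it. The full CRE was found in JUND (1.85% of all windows), from 200 to 193 bases before the start. TGACATCA was found in JUN, from 67 to 60 bases before the start, and in 1 of the 2 windows of ATF3, from 123 to 116 bases before it (2.61% of all windows). The TRE TGACTCA was found in FOSL2 alone among the members (4.95% of all windows), 4 to 10 bases after the start and thus outside the stretch shown. The G-run motif was found in FOSL2 (25.0% of all windows), and the CArG box, the SRF site, in no member window (1.29% of all windows). Bases more than 250 before the start were not searched, so a CArG box there would have been missed. These matches are letters in a window and were not tested as binding sites. TGACG and TGACATCA were added after the sequences were seen, so their counts beside the shares of all windows are no test of enrichment. Of the 6 genes with the core TGACG, FOS, JUN, JUNB and JUND were called at 72 h and FOSB and FOSL2 were not.

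In the control, the JUN family and ATF3 made up most of the AP-1 transcripts. JUN was highest, at 43.5 FPKM in the 3 h table, followed by ATF3 at 15.03, JUND at 13.1 and JUNB at 8.55 FPKM. The FOS family was lower, with FOSL2 at 2.27, FOSB at 1.74, FOS at 1.09 and FOSL1 at 0.409 FPKM. The summed FPKM of the 3 JUN genes was 11.8 times that of the 4 FOS genes. With 1 value per condition, neighbours in this order could not be tested against each other. The plot of levels by condition shows all 8 genes on the scale of the 3 h table.

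**Figure D1:**
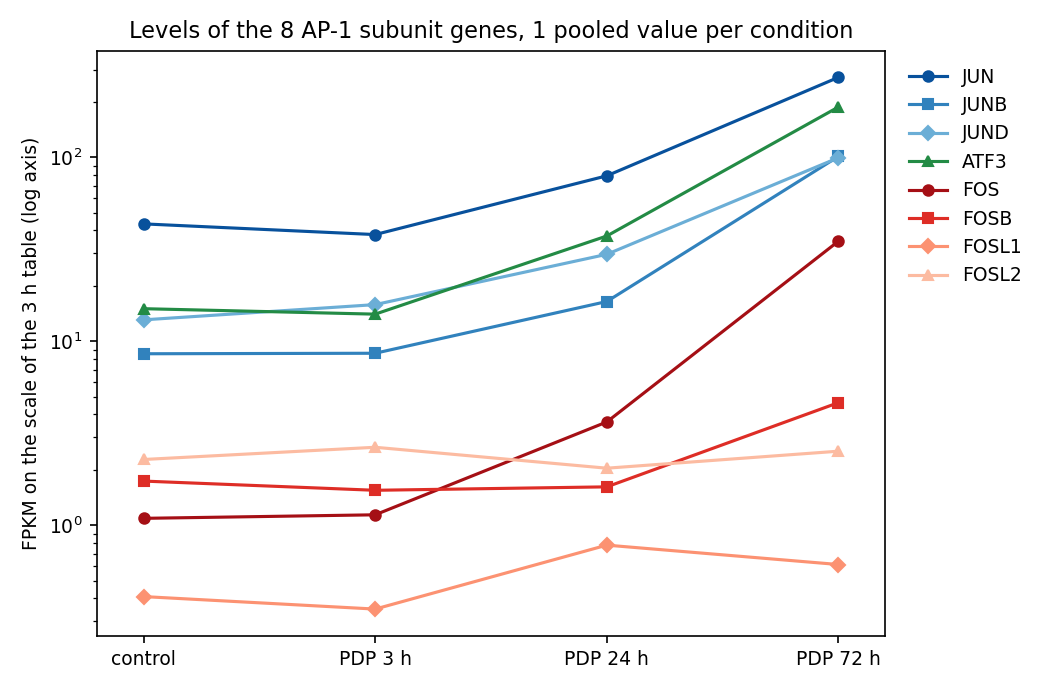
FPKM of each gene (log axis) in the control and after the 3 exposures to PDP, 1 pooled value per point, with the 24 h and 72 h values divided by the control factor of their table. FOS goes from 1.09 to 35.0 FPKM and crosses FOSB and FOSL2 between 3 h and 24 h, while FOSL1 stays under 1 FPKM.

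After 3 h, the earliest time here, no member was called. A change that came and went before 3 h would have been missed. The authors' deposited table called 0 of the 7 members it tested, none with an unadjusted p under 0.05, where 0.115% of all 14751 tested genes were called in either direction (0.108% higher and 0.00678% lower). JUN had 38.0 FPKM with PDP against 43.5 in the control, a log2 fold change of -0.19 (SE 0.20). FOS had 1.14 against 1.09 FPKM (0.06, SE 1.28), and JUNB 8.60 against 8.55 FPKM (0.01, SE 0.87). ATF3 had 14.0 against 15.03 FPKM (-0.10, SE 0.25) and JUND 15.8 against 13.1 FPKM (0.28, SE 0.32). FOSB and FOSL2 had log2 fold changes of -0.17 and 0.22. FOSL1 was listed as not tested, at 0.3497 against 0.409 FPKM. These SE are larger than or close to the changes, so a difference of that size was not detectable at 3 h.

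At 24 h 4 members were called higher and none lower out of 8 tested, against 9.21% of all 15385 tested genes called higher and 8.29% called lower (17.5% in all). The 4 were FOS, JUN, JUND and ATF3. At 72 h 5 of 7 tested were called higher and none lower, against 19.0% and 12.8% of all 15423 tested genes (31.8% in all). The 5 were those of 24 h and JUNB. The median log2 fold change over all 8 members at 3 h was -0.04, then 0.94 at 24 h and 2.79 at 72 h, beside -0.0088, -0.059 and 0.060 over all genes with a control FPKM of at least 1. All 5 calls at 72 h sat at the smallest p-value in the authors' deposited table (5e-05, q = 0.000393), as did 1964 of its tested genes, so these p-values give no order among the members.

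**Figure D2:**
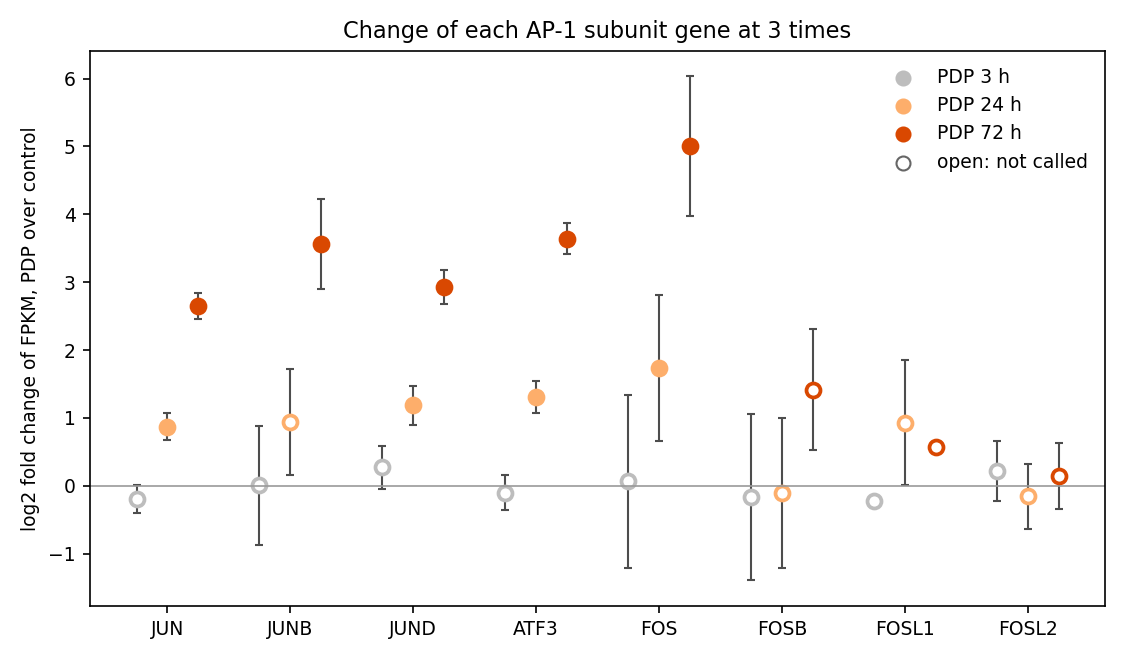
Log2 fold change of FPKM for each gene (PDP over control) at 3 h, 24 h and 72 h. Bars are the SE implied by the authors' test statistic, open symbols were not called, and FOSL1 has no SE at 3 h and 72 h because it was not tested. JUN, JUNB, JUND, ATF3 and FOS lie between 2.65 and 5.01 at 72 h, all above FOSB at 1.42.

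All 3 JUN genes were called higher at 72 h, and JUN stayed the most abundant. JUN (ENSG00000177606.6, chromosome 1, 58780788 to 58784327, with positions as in the deposited tables, build GRCh38.p7), a strong transcriptional activator, had 82.4 FPKM with PDP at 24 h (control 45.1 FPKM) and 263 FPKM at 72 h (control 42.1 FPKM). Its log2 fold changes were 0.87 (SE 0.20, q = 0.000908 in the authors' deposited table) and 2.65 (SE 0.19), the latter a 6.26-fold rise. JUND (ENSG00000130522.5, chromosome 19, 18279760 to 18281622), a JUN protein often present in resting cells, had 30.8 against 13.6 FPKM at 24 h and 96.3 against 12.7 FPKM at 72 h. Its log2 fold changes were 1.18 (SE 0.29) and 2.93 (SE 0.25). The rise of JUND at 72 h was 7.61-fold, and the difference from JUN was not tested. JUNB (ENSG00000171223.5), a JUN protein that activates weakly and can oppose JUN, had 17.1 against 8.87 FPKM at 24 h, which was not called (log2 fold change 0.94, SE 0.78, q = 0.242 in the authors' deposited table). At 72 h it had 97.9 against 8.28 FPKM and was called (3.56, SE 0.67), an 11.8-fold rise. JUNB was the lowest of the 3 in the control and at 72 h had a value near that of JUND. The sum over the family went from 63.0 to 458 FPKM at 72 h, and the share of JUN in it was 66.8% in the control and 57.6% with PDP.

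ATF3 (ENSG00000162772.16, chromosome 1, 212565334 to 212620777), which can repress transcription as a homodimer, was called higher at both later times. It had 38.8 against 15.6 FPKM at 24 h (log2 fold change 1.31, SE 0.23) and 182 against 14.5 FPKM at 72 h (3.64, SE 0.23). The rise at 72 h was 12.5-fold, and it left ATF3 as the second most abundant member, as it had been in the control. Its implied SE was among the smallest of the members, beside those of JUN and JUND.

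Within the FOS family FOS alone was called. FOS (ENSG00000170345.9, chromosome 14, 75278774 to 75282230), a strong activator when paired with JUN, had 3.78 against 1.13 FPKM at 24 h. That is a log2 fold change of 1.74 (SE 1.07), which the authors' deposited table called at q = 0.0178 (p = 0.00215). A normal approximation from this SE would give p = 0.105, so the call of FOS at 24 h depends on how the authors' p-value was made, which is not given in the sources used here. At 72 h FOS had 33.9 against 1.05 FPKM, a 32.1-fold rise (log2 fold change 5.01, SE 1.03). With a pseudocount of 1 FPKM its log2 fold change was 4.09, since the control is near 1 FPKM. This SE is the widest among the called members at 72 h. FOSB (ENSG00000125740.13, chromosome 19), a close relative with a shorter splice form, had 1.68 against 1.802 FPKM at 24 h. At 72 h it had 4.49 against 1.68 FPKM, a log2 fold change of 1.42 (SE 0.89) that lay just outside the threshold in the authors' deposited table (p = 0.017, q = 0.0527; normal approximation from the SE, p = 0.113). FOSL2 (ENSG00000075426.11, chromosome 2, 28384409 to 28417312), which encodes FRA2, a FOS protein without the strong activation domain, had 2.12 against 2.36 FPKM at 24 h and 2.44 against 2.204 FPKM at 72 h. Its log2 fold changes were -0.16 (SE 0.48) and 0.15 (SE 0.49). FOSL1 (ENSG00000175592.8, chromosome 11, 65892049 to 65900573), which encodes FRA1, had 0.809 against 0.424 FPKM at 24 h (log2 fold change 0.93, SE 0.92, q = 0.232 in the authors' deposited table). At 72 h it had 0.592 against 0.396 FPKM and was not tested. The share of FOS in the family differed between conditions: its part of the summed FPKM was 19.8% in the control, 45.1% with PDP at 24 h and 81.8% at 72 h. FOSL2 had been the largest of the 4 in the control. The JUN to FOS family ratio of summed FPKM was 15.5 with PDP at 24 h and 11.1 at 72 h, beside 11.8 in the control.

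On the log2 scale, the step from 24 h to 72 h was larger than the change at 24 h for each of the 5 called members. The step covers a longer time than the 24 h of the first change, so this order is not one of rates. After division by the control of each table, FOS was 9.61 times higher with PDP at 72 h than with PDP at 24 h, JUNB 6.14 times, ATF3 5.03 times, JUN 3.43 times and JUND 3.35 times. FOSB was 2.87 times higher, FOSL2 1.24 times and FOSL1 0.783 times. This step has no test, because the tables were normalised separately and hold pooled values.

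Among all genes, the 5 called members stood near the upper end at 72 h. They were picked by their calls at that same time, so their ranks there are no separate support. Of 13455 genes with a control FPKM of at least 1, 2 had a larger log2 fold change than FOS, 16 a larger one than ATF3 and 18 a larger one than JUNB. For JUND and JUN the numbers were 35 and 68. Over all 15239 tested genes with a finite change, which include genes with lower control values, 29 lay above FOS, 145 above ATF3, 157 above JUNB, 296 above JUND and 402 above JUN. Among the 13455 genes with a control FPKM of at least 1, 5914 lay above FOSL2 at 72 h, 2927 above FOSL1 and 670 above FOSB. In that same set, 64 genes lay above FOS and 929 above JUN at 24 h. At 3 h 4271 genes of that set lay above FOS and 11640 above JUN.

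**Figure D3:**
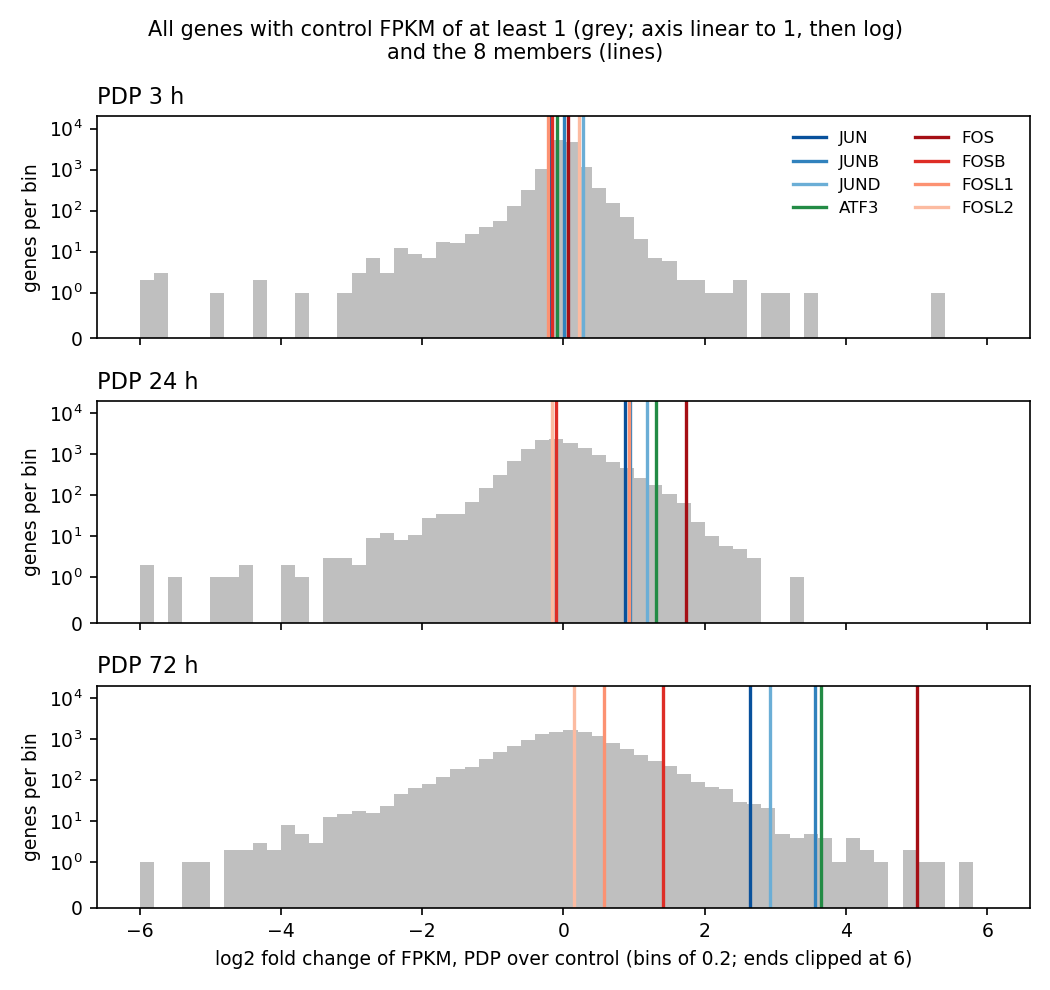
Number of genes per bin of log2 fold change (grey, genes with a control FPKM of at least 1) at 3 h, 24 h and 72 h, with a line for each of the 8 members. The vertical axis is linear up to 1 gene and logarithmic above. At 3 h the members lie between -0.23 and 0.28, inside the bulk of genes, and at 72 h 5 of them lie at 2.65 or more.

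The genes nearest to each member in their 3 log2 fold changes were sought by Euclidean distance over the 3 times, which share 1 control. For FOS they were RP5-1107A17.4, PABPC1P3 and HILPDA, at distances of 0.48, 0.54 and 0.56, and of these HILPDA alone was called at 24 h and 72 h. For JUN they were GPR146, NPPC and BHLHE40, with distances of 0.070 to 0.13, and for JUND ADAMTSL5, STC1 and NOL4, with distances of 0.12 to 0.22. NEAT1, a nuclear noncoding RNA, was among the nearest of both JUNB (0.25) and ATF3 (0.28), with log2 fold changes of 0.05, 1.10 and 3.75. The other neighbours of JUNB were RP11-802D6.1 and RP13-20L14.10, and those of ATF3 were RP13-20L14.10 and AL034550.1. RP11-802D6.1, RP13-20L14.10 and AL034550.1 had 0.266, 0.311 and 0.224 FPKM in the control of the 3 h table. They were not called at 24 h or 72 h. RP5-1107A17.4, near FOS, had 0.0352 FPKM in that control. Candidates had to reach 1 FPKM in any condition, so genes under 1 FPKM in the control passed only through their value with PDP. FOSB lay near CNFN, ZNF585A and CTD-3065J16.9, and FOSL2 near WWOX, SLC25A26 and AP3M2. Between the members themselves, the smallest distance was that of JUNB and ATF3 (0.39), followed by JUN and JUND (0.63). FOS lay 1.44 from ATF3 and 5.22 from FOSL2.

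The loci of 3 members hold other genes, and whether reads were shared between them was not tested. The deposited tables place JUNB in a locus of 11 genes on chromosome 19 (12763003 to 12874951) and FOSB in a locus of 5 genes (45379634 to 45478828). FOS, FOSL1, JUN, JUND and ATF3 are alone in their loci, and FOSL2 shares its locus with 2 genes that had under 1 FPKM in the control. In the JUNB locus HOOK2 had 40.0 against 10.2 FPKM at 72 h (log2 fold change 1.98, called), while MAST1, RNASEH2A and PRDX2 had changes of 1.62, 0.22 and 0.09 and were not called. In the FOSB locus PPP1R13L had 28.1 against 4.78 FPKM (2.55) and CD3EAP 7.16 against 25.5 FPKM (-1.84), both called at 72 h, and ERCC1 had a change of 0.44 that was not called.

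The pull-down gave a readout of the same loci that is independent of the RNA. Of the 8 loci, widened by 5 kb on both sides, 5 held at least 1 of the 51446 peaks, against 68.6% of all 13455 genes with a control FPKM of at least 1. The 5 were JUN, JUNB, ATF3, FOSB and FOSL2, and 3 of these were called in the RNA. FOS and JUND, which were called too, had no peak within 10 kb. The peak near JUN (chromosome 1, 58776317 to 58776751) lay 4037 bases outside its locus and had the authors' score of 21.9, higher than 93.2% of all peaks. The ATF3 locus held 1 peak (212616170 to 212616596) with a score of 13.8. The JUNB locus held 2, with scores of 38.3 and 23.7, and the FOSB locus 2, with 16.3 and 11.1, but both are long loci shared with other genes. The FOSL2 locus held 2 peaks, with scores of 9.90 and 9.42, below the median score. The nearest peaks of FOS, FOSL1 and JUND were 17218, 13657 and 13410 bases away. By this rule 30.8% of genes in loci under 10000 bases had a peak, against 93.8% of those in loci of at least 100000 bases. Members of the shorter class were FOS, FOSL1, JUN and JUND, of which 1 had a peak.

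Lists of related genes were examined in the same tables. In each list the median is over genes with a control FPKM of at least 1, beside 0.060 at 72 h for all such genes, and comparisons at the 3 times share the control. At 3 h the authors' deposited table called no gene in any of these lists, and HBEGF was the 1 tested gene of these lists with an unadjusted p under 0.05.

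**Figure D4:**
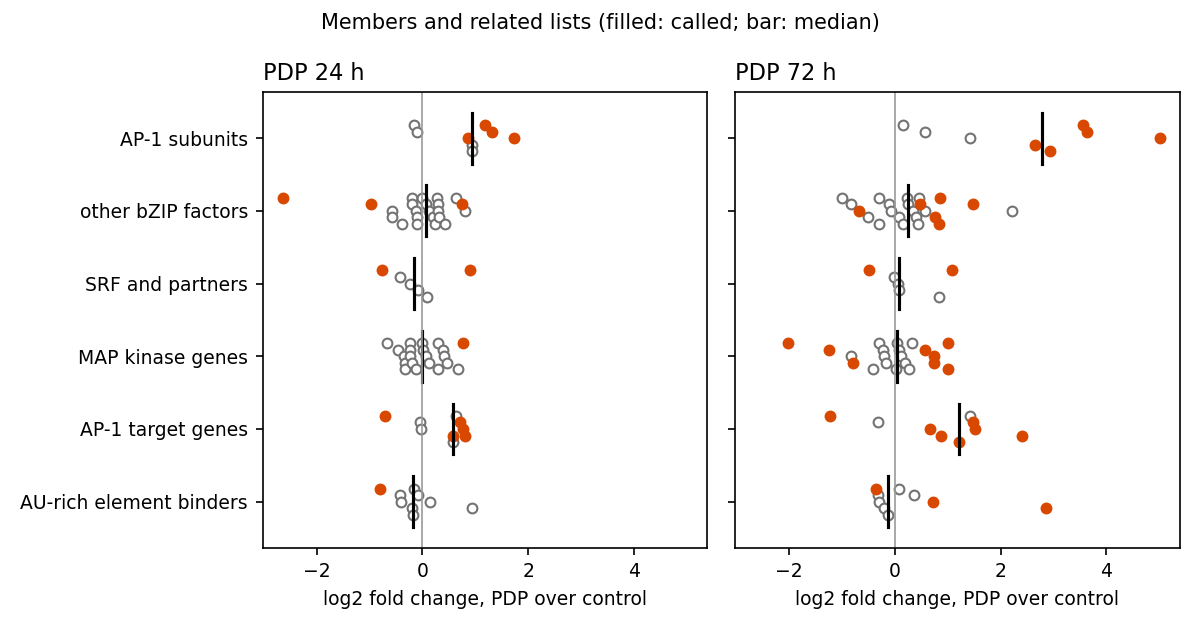
Log2 fold change at 24 h and 72 h of the 8 members and of 5 related lists (genes with a control FPKM of at least 1), 1 symbol per gene, filled where called, with the median as a bar. At 72 h the medians are 2.79 for the members and 1.22 for the AP-1 target genes, and between -0.13 and 0.26 for the other lists drawn. The HEK 293T markers, not drawn, have a median of 1.28.

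Other bZIP factors, which can pair with FOS or JUN proteins or share their sites, were called in both directions. Of 25 tested at 24 h, 3 were called higher (MAFF, BATF2 and JDP2) and 2 lower (ATF5 and ATF1), where 9.21% of all tested genes were called higher and 8.29% lower. Of 24 tested at 72 h 6 were called higher and 1, ATF1, lower, where the shares over all tested genes were 19.0% and 12.8%, and the median was 0.26. JDP2 and ATF1 are named here after their values were seen. MAFF, a small MAF protein without an activation domain, rose at both times and had 8.24 against 0.788 FPKM at 72 h (log2 fold change 3.39). NFIL3, a bZIP repressor, rose to 16.8 FPKM at 72 h (1.49), and BATF2, which pairs with JUN proteins, had 1.09 against 0.222 FPKM at 24 h (2.30, SE 1.32). ATF5, a factor of the stress response, fell by 2.64 on the log2 scale at 24 h (SE 1.20). At 72 h the change of ATF5 was -0.99 (SE 0.91) and was not called.

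The RNA of genes known to act upstream of FOS and JUN was called in both directions. The activity of the proteins they encode was not measured here. Of 6 genes for SRF and its partners, 1 was called higher and 1 lower at 24 h and again at 72 h. The shares over all tested genes were 9.21% higher and 8.29% lower at 24 h, and 19.0% and 12.8% at 72 h. SRF, the factor that binds the CArG box, fell to 15.7 FPKM at 24 h (control 26.6 FPKM, log2 fold change -0.76) and had 17.8 FPKM at 72 h (control 24.8 FPKM, -0.48, called). Of its partners, ELK3 rose at 24 h (5.49 to 10.2 FPKM) and ELK4 at 72 h (12.4 to 26.2 FPKM), and the other 3 were not called at either time. Of 22 genes for MAP kinases and the kinases around them, 1 was called higher at 24 h, MAPK11 (2.67 to 4.52 FPKM), where 9.21% of all tested genes were. At 72 h 5 of 21 tested were called higher (MAPK3, MAPK11, MAPK12, MAP2K1 and MAP2K5) and 3 lower (MAPK13, MAP2K3 and RPS6KA2), with a median of 0.044. These shares are near the 19.0% and 12.8% of all tested genes called higher and lower at 72 h. MAPK3, MAPK12, MAP2K1 and MAP2K3 are named after their values were seen. MAP2K5, which activates ERK5, rose from 6.79 to 13.6 FPKM, and MAPK13, a p38 kinase, was called lower, at 0.281 against 1.13 FPKM (log2 fold change -2.01, SE 1.41). RPS6KA2, an RSK kinase, fell from 4.02 to 1.70 FPKM.

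Of 24 textbook AP-1 target genes, 9 reached 1 FPKM in the control, and the collagenase and stromelysin genes MMP1 and MMP3 were listed at 0 there. At 24 h 4 of 11 tested were called higher (DUSP1, HBEGF, HMOX1 and PLAUR) and 1 lower (median 0.59). At 72 h 7 of 13 tested were called higher and 1 lower (median 1.22). The tested genes differed between the times: CD44 and LIF, at 0.456 and 0.241 FPKM in the control of the 72 h comparison, were tested at 72 h alone. Higher calls made up 9.21% of all tested genes at 24 h and 19.0% at 72 h, and lower calls 8.29% and 12.8%. The HEK 293T markers, 5 of 6 called higher at 72 h, had a median of 1.28 there, and VIM is on both lists. DUSP1, a phosphatase of MAP kinases, had 15.3 against 10.2 FPKM at 24 h and 50.4 against 9.57 FPKM at 72 h (log2 fold change 2.40). HBEGF, an EGF receptor ligand, rose by 1.51 on the log2 scale at 72 h, and HMOX1, heme oxygenase, had 31.9 against 11.5 FPKM. CD44, a hyaluronan receptor, had 2.12 against 0.456 FPKM at 72 h and was called, but the implied SE (2.59) exceeds its log2 fold change (2.22). The gene called lower at both times was CCND1, cyclin D1 (52.8 to 22.5 FPKM at 72 h), which like PLAUR is named after its value was seen.

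Proteins that bind AU-rich elements shorten or lengthen the life of mRNAs such as that of FOS. Of 9 tested, none was called higher and 1 lower at 24 h, where 9.21% of all tested genes were called higher and 8.29% lower. At 72 h 2 were called higher and 1 lower (median -0.13), shares near the 19.0% and 12.8% of all tested genes. ZFP36, tristetraprolin, which speeds the decay of such mRNAs and is itself an early gene, had 3.08 against 1.61 FPKM at 24 h, not called, and rose to 10.9 against 1.51 FPKM at 72 h (log2 fold change 2.86). Its relatives ZFP36L1 and ZFP36L2 went opposite ways at 72 h, from 14.2 to 23.6 FPKM and from 29.6 to 23.1 FPKM, both called.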

How the data were processed

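Poly(A) RNA libraries of HEK 293T cells were made with the VAHTS stranded kit, per the labels. HISAT2 2.0.5, Cufflinks 2.2.1, HOMER 4.9.1, Picard, SAMtools 1.3.1, Bowtie2 2.2.9 and Trim Galore 0.4.4, with the build GRCh38.p7, are named in the submitters' processing notes with neither role nor settings. The authors' deposited tables hold FPKM pooled over the 2 samples of a condition, with p-values and q-values of their own test. The score of the authors' deposited test statistic gave the implied SE (log2 fold change over statistic), and the score of their deposited peak list has no stated unit.

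The FPKM with PDP was divided by that of the control and put on the log2 scale with no pseudocount. No model could be fitted, because pooled values hold no samples. Members, lists and settings were chosen with earlier results of these data known. From each related list the text names up to 4 called genes by size of change, and for each member with an FPKM of at least 1 the 3 nearest genes. The CRE core TGACG and the variant site TGACATCA were added after the sequences were seen. Locus starts were moved to count from 1. Motifs were searched on both strands of RefSeq windows of 250 bases before and 50 bases after each start (GRCh38.p14), which were not joined to the peak coordinates. Steps were tested on simulated data. The alternatives tried were q under 0.01, changes of 1 or more on the log2 scale, an FPKM minimum of 5, a pseudocount of 1, other scalings, other peak windows and longer loops. Python 3.11.15, NumPy 2.4.6, pandas 2.3.3 and Matplotlib 3.10.9 were used.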

Additional observations from a re-analysis of the deposited data

How the results depend on the processing

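The counts of members called higher (0, 4 and 5 at 3 h, 24 h and 72 h) stayed within 1.5 times with q under 0.01, changes of 1 or more on the log2 scale, an FPKM minimum of 5, or members alone in their locus, the last an alternative chosen after seeing the data. Each of these gave 3 or 4 at 24 h and 4 or 5 at 72 h, and none gave a lower call. Scaling both conditions to equal FPKM sums adds 0.17 at 24 h and -0.10 at 72 h to every log2 fold change. It turned FOSB (from -0.10 to 0.065) and FOSL2 (from -0.16 to 0.012) at 24 h, neither of them called, and no other member. A pseudocount of 1 FPKM turned no member. With it FOS went from 1.74 to 1.17 at 24 h and from 5.01 to 4.09 at 72 h. FOSL1, under 1 FPKM and not tested at 3 h and 72 h, went from -0.226 to -0.062 and from 0.577 to 0.189 at those times. The number of member loci with a peak, 5, stayed within 1.5 times with no window, a window of 10 kb or the upper part of peaks by score. With loops of up to 12 bases the G-run motif was found in 5 of the 8 member windows in place of 1, against 37.8% of all windows; longer loops match more sequences by construction. No paired analysis was possible because each condition is deposited as 1 pooled value, so no replicate could be left out either.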
